A study of Homo sapiens with 9 samples.

Results

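The TGF-beta and BMP feedback genes examined here were ID1, ID2, ID3, SMAD3, SMAD6, SMAD7, SKI, SKIL, BAMBI and TGFB2. They were chosen by symbol, as were the gene lists below, with earlier results of these data known. Counts of them set beside all genes are therefore descriptive. The values of the members are the rows of a table of 3′ mRNA ends whose RefSeq identifier belongs to one of these genes. All 10 were found, in 24 rows that held 14 distinct intervals, among 27019 genes in the whole table. The measurements came from SLAM-Seq, in which cells take up 4-thiouridine (4sU), a uridine analogue that enters RNA made while it is present and that is read as C in place of T after alkylation. The cells were MCF10A, a non-transformed human mammary epithelial line, with JUN knocked out and then replaced by a JUN-AID fusion protein together with TIR1, so that indole-3-acetic acid (IAA, an auxin) triggers JUN degradation. There were 3 groups of 3 samples: a control without 4sU (no 4sU), DMSO with 100 µM 4sU for 1 h (DMSO 4sU), and 100 µM IAA for 1 h before 100 µM 4sU for 1 h (IAA 4sU). The labels of the no 4sU control do not say whether it received DMSO, so effects of 4sU and of DMSO cannot be told apart. All groups carried the same knockout and the same constructs in 1 cell line. The study describes its replicates as biological, while the labels only number them, and p-values measure the spread between these samples of 1 line.

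Ligands of the TGF-beta and BMP families bind paired receptor kinases that phosphorylate SMAD proteins, which enter the nucleus and change transcription. Among the genes that SMADs switch on are several that restrain the same signal: the inhibitory SMADs, the corepressors SKI and SKIL, and the decoy receptor BAMBI. The ID genes are classical BMP targets, and their proteins hold back basic helix-loop-helix transcription factors.

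For each gene the deposited table gives the T>C conversion rate, the share of T positions read as C without correction for background, and the total mRNA as reads scaled to library size (CPM). The rate is given here in percent and rises with the newly made share of a transcript, whereas CPM covers old and new RNA alike. The libraries held 18997637 to 24014195 reads. The 3 IAA columns were identical in every row and were counted as 1 library, so no p-value is given for IAA and its differences have no replicate check. All 7 basal mammary epithelial markers were above 1 CPM in every library, with summed levels of 5899 to 9377 CPM without 4sU and 7320 to 8604 CPM with DMSO 4sU. The lowest of them was KRT14, at 3.63 to 10.6 CPM. Of 5 fibroblast markers 2 were above 1 CPM in every library, DCN at 7.19 to 14.2 CPM, above KRT14 in all but no 4sU replicate 1, and COL1A1 at 3.21 to 9.82 CPM, while COL1A2 was at 0, and the summed level of the 5 ran from 13.2 to 18.6 CPM, highest in the IAA library. None of 3 luminal hormone-receptor markers passed 1 CPM in any library. Of 3 leukocyte markers PTPRC and CD3E were at 0 and CD14 was at 0.983 to 2.32 CPM without 4sU, 1.49 to 4.09 CPM with DMSO 4sU and 4.19 CPM with IAA, and of 2 endothelial markers CDH5 was at 0 and PECAM1 at 0.179 to 1.08 CPM. The part of other cells in the results was not tested. In bulk samples of this kind, fewer cells of a type and less RNA per cell cannot be told apart. Total JUN mRNA cannot check the depletion because the degron acts on the protein.

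The promoter sequences of 4 member starts are shown because ID1, ID3 and SMAD7 were the members whose total mRNA changed with 4sU, and because 1 start of SMAD3 was the only one with a match to the binding motif of AP-1, the factor that contains JUN. They are RefSeq windows of 300 bases on GRCh38.p14, from 250 before to 50 after a start site, and all 10 genes had at least 1 among 15 member windows. Capitals mark matches, on either strand, to TGANTCA (AP-1), CAGAC (SMAD), GGCGCC (GC-rich SMAD) or GGAATG (TEAD). In order, the windows are chr20:31605039-31605338 on the plus strand, chr1:23559452-23559751 and chr18:48950916-48951215 on the minus strand, and chr15:67125492-67125791 on the plus strand.
ID1: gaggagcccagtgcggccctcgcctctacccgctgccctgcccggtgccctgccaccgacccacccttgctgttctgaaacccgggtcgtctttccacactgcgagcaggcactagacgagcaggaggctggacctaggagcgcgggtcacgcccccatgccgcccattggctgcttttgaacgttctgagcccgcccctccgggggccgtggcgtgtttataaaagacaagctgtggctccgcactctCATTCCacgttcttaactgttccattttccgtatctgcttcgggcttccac
ID3: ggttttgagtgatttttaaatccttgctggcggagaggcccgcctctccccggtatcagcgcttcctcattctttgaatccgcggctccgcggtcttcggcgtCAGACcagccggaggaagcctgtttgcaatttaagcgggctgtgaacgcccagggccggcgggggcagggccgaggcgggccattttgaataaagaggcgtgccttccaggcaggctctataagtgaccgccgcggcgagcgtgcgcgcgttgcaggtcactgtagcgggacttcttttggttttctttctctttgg
SMAD7: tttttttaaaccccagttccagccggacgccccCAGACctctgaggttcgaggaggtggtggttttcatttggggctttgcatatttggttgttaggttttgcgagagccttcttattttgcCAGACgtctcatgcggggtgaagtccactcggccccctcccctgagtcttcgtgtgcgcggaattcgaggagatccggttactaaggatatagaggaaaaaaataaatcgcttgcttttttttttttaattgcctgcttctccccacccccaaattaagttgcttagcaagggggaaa
SMAD3: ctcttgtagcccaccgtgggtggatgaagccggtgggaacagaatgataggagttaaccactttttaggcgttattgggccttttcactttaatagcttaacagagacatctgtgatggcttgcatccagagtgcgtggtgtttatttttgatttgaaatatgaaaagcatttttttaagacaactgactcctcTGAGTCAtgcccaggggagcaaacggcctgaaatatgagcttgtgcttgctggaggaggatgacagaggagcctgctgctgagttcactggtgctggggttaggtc

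The CAGAC letters occurred in 9 of the 15 member windows, of ID3, SMAD3, SMAD7, SKIL, BAMBI and TGFB2, and in 45.3% of all 35116 promoter windows of this length. In the printed window of SMAD7 they began at -217 and -128 from the start site, and in that of ID3 at -147. GGCGCC was found in 3 member windows, of SMAD3, SKIL and BAMBI, and in 19.2% of all windows. GGAATG or its complement was found in 2, of ID1 and TGFB2, and in 14.0% of all windows, whereas TGANTCA was found in the SMAD3 window at -56 and in 7.71% of all windows. A match is a run of letters and no evidence of binding.

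Each gene was read at its 3′ end, and the interval lengths of SMAD7 (1522 bases), SKI (3451 bases) and TGFB2 (3260 bases) equalled those of their 3′ UTR exons in the GENCODE annotation of GRCh37, the build named in the submitters' processing notes. The other members had no interval of equal length, and for SMAD6 the coding interval had 467 bases against 1317 in the exon. On GRCh37 the 3′ UTR exon of ID1 spans chr20:30193895-30194313, that of ID3 chr1:23884417-23884906 and that of SMAD7 chr18:46446223-46447744. The pentamer ATTTA, the core of AU-rich elements that are known from short-lived mRNAs, was looked up in these UTRs after the values had been seen. It occurred in the last 300 bases of 9 of the 10 member UTRs, all but TGFB2, against 49.7% of 15394 annotated UTRs of at least 300 bases. BAMBI had the most, with 4 in that window and 9.36 per 1000 bases of UTR, where the median over all UTRs was 1.87. ID1, ID3 and SMAD7, whose total mRNA fell, had 2.39, 1.93 and 1.97 per 1000 bases, from 1, 1 and 3 ATTTA in the whole UTR. The other members had 5.20 (SKIL), 4.56 (SMAD6), 3.81 (ID2), 3.19 (SKI), 2.15 (TGFB2) and 1.51 (SMAD3). TATTTAT, a longer run looked up in the same search, was absent from the UTRs of ID1, ID3 and BAMBI. It was present in those of the other members and in 31.2% of all annotated UTRs. A link between either run and total mRNA was not tested. The sites below are 30 bases each, with ATTTA in capitals, for the 3 genes whose total mRNA fell, all within the last 300 bases, and for SMAD6, whose site lies outside that window, 193 bases into its 1317-base UTR exon. They lie at chr20:30194284-30194313 (plus strand), chr1:23884539-23884568 (minus), chr18:46446407-46446436 (minus) and chr15:67074064-67074093 (plus).
ID1 site: tttgttattaaacaaataATTTAgatggtg
ID3 site: tctgttgccctgATTTAtgaactctataat
SMAD7 site: ataagcatcattATTTAtgtattgtgcaat
SMAD6 site: tacaatgtaattATTTAtgtatggtgcaat

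The sites of the inhibitory SMADs, SMAD6 and SMAD7, were alike: 22 of 30 bases were the same, and 17 of the 18 bases from the A of ATTTA onwards. The next most alike pairs, with 1 site taken per member, shared 16 of 30, and this comparison too was made after the sites had been seen. Each site was placed on the first TATTTAT of the UTR exon, or else the first ATTTA, so shared letters of these runs match by construction. In ID1 the end of the exon shifted the site, so its ATTTA is out of step with the others.

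The first comparison, DMSO 4sU against no 4sU, asks how strongly each transcript was labelled during the pulse and whether total mRNA moved with it. In 9 of the 10 members, all but TGFB2, the lowest labelled library had a higher T>C rate than the highest unlabelled one. This held for 63.6% of the 10895 genes tested, a set without TGFB2. Of these genes 51.3% were called higher (limma with a pseudocount of 0.0005 on the rate, at an adjusted p under 0.05) and 0.0734% were called lower. The test needed a rate above 0 in 3 of 6 libraries, which SMAD6 met only through the labelled libraries and TGFB2 did not meet, so no test is given for either. For SMAD6, at 0 in all unlabelled libraries, the separation of the groups also followed from this filter. When a mean of 200 reads or more was required, the 6 members tested (ID1, ID2, ID3, SMAD3, SKI and SKIL) were all called higher, against 65.5% of 7232 genes, with a median log2 change of 3.37 against 1.14. In total mRNA, 3 of the 10 members fell (ID1, ID3 and SMAD7), against 1.63% of 12363 genes tested that fell, and none of the 10 rose (0 of 10 also at an unadjusted p under 0.05). None of the 12363 genes rose in the main limma fit either, while 368 were higher at an unadjusted p under 0.05, and edgeR called 0 and DESeq2 5 genes higher. Limma called 2 of 17274 genes higher without a filter, and 2 of 12196 without no 4sU replicate 1.

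**Figure D1:**
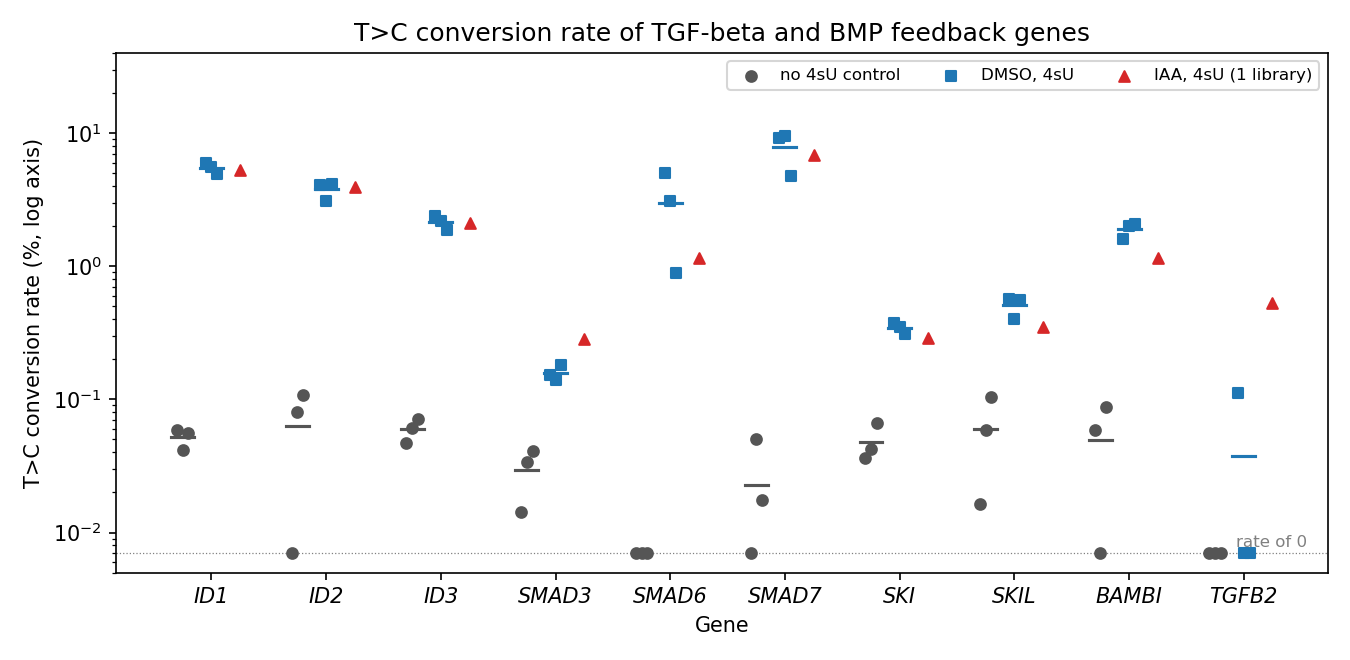
T>C conversion rate of the 10 genes in percent, on a log axis, for each library without 4sU (grey circles), with DMSO 4sU (blue squares) and the 1 distinct IAA 4sU library (red triangles). Bars are group means, and rates of 0 are drawn on the dotted line. SMAD7 and ID1 had the highest mean rates with DMSO 4sU, 7.82% and 5.50%, and TGFB2 the lowest, 0.0373%.

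The ID genes were labelled strongly, and ID1 and ID3 also had lower CPM with 4sU. ID1 had rates of 0.0587, 0.0415 and 0.0558% in the 3 libraries without 4sU and of 6.0, 5.60 and 4.89% with DMSO 4sU. Total ID1 mRNA was 184, 170.2 and 172 CPM without and 61.2, 42.4 and 55.5 CPM with 4sU. The groups lay far apart in both measures, and the labelled libraries kept 30.2% of the unlabelled mean CPM (53.0 ± 9.62 against 175 ± 7.71 CPM, SD, n = 3 each). The rate rose by a log2 change of 5.76 (SE 0.34, limma adjusted p = 0.000487), and total mRNA fell by 1.75 on the log2 scale (95% CI -2.13 to -1.37, limma adjusted p = 0.000987). Only 10 of 7243 genes with at least 200 reads on average had a higher mean rate with DMSO 4sU.

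ID3, which like ID1 encodes a DNA-binding inhibitor without a basic region, had rates of 0.0470, 0.0614 and 0.0710% without 4sU and of 2.38, 2.18 and 1.87% with it. In total mRNA it was at 133, 150 and 164 CPM without 4sU and 82.2, 67.0 and 90.1 CPM with it. Again no labelled library reached an unlabelled one, but the gap was smaller, with 53.5% of the mean left. The rate rose by 4.32 log2 units (SE 0.32, limma adjusted p = 0.000694). Total mRNA fell by 0.93 log2 units (95% CI -1.33 to -0.53, limma adjusted p = 0.0320), a call that held in 10 of 16 alternatives and in 1 of the 6 fits that left out a library, the one without no 4sU replicate 1. Over those 6 fits the adjusted p ran from 0.00822 to 0.163 and the log2 change from -1.06 to -0.81.

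ID2 was labelled as well, with 0, 0.0805 and 0.109% without 4sU and 4.10, 3.11 and 4.14% with it (log2 change 5.23, SE 0.53, limma adjusted p = 0.00146). The CPM of ID2 were 8.35, 13.7 and 14.4 without 4sU and 8.46, 10.2 and 9.11 with it. These groups overlapped, because replicate 1 without 4sU was the lowest of the 6 libraries. The log2 change in total mRNA was -0.36 (95% CI -0.88 to 0.17, limma adjusted p = 0.662). It was -0.63 without no 4sU replicate 1 (limma adjusted p = 0.0995) and -0.21 without no 4sU replicate 3.

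**Figure D2:**
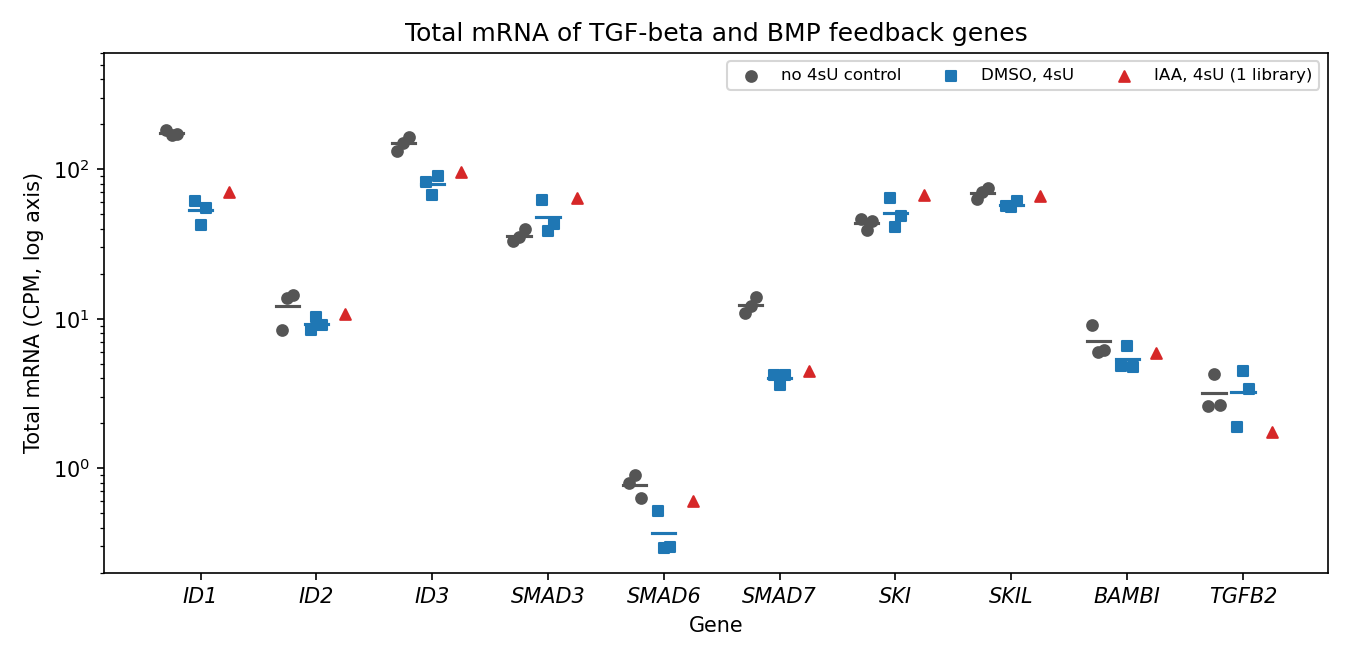
Total mRNA of the 10 genes in CPM, on a log axis, for each library, with bars at the group means. The DMSO 4sU libraries (blue squares) of ID1, ID3, SMAD6, SMAD7 and SKIL all lie under the no 4sU libraries (grey circles). Those of ID2, SMAD3, SKI, BAMBI and TGFB2 overlap with them.

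SMAD7, an inhibitory SMAD that blocks receptor signalling and recruits ubiquitin ligases to the receptors, carried the highest label of the group. Its rates were 0, 0.0507 and 0.0177% without 4sU and 9.17, 9.49 and 4.80% with DMSO 4sU, and replicate 3 was at about the level of ID1 while the others were above it. Total SMAD7 mRNA was 10.97, 12.2 and 13.9 CPM without 4sU and 4.18, 3.58 and 4.23 CPM with it. The labelled libraries were close to each other, well under the unlabelled ones, at 32.4% of their mean. The log2 change was 6.75 in the rate (SE 0.47, limma adjusted p = 0.000600) and -1.44 in total mRNA (95% CI -1.86 to -1.02, limma adjusted p = 0.00483). Only 2 of the 7243 genes with at least 200 reads had a higher mean rate, although SMAD7 itself was read 85 to 89 times per library with DMSO 4sU and 222 to 272 times without.

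SMAD6, the inhibitory SMAD best known for acting on BMP signals, was rare, with 6 to 20 reads per library of these 2 groups. Its rate was listed at 0 in all 3 libraries without 4sU and at 5.03, 3.10 and 0.893% with it. The values with 4sU spread over a wide range, and with the control listed at 0 no fold is given. Total SMAD6 mRNA was 0.791, 0.894 and 0.632 CPM without 4sU and 0.517, 0.291 and 0.299 CPM with it. No labelled library reached the unlabelled range, but the difference did not pass the test (log2 change -0.38 with a pseudocount of 1 CPM, limma adjusted p = 0.438), and over 15 alternatives the change ran from -1.11 to -0.11.

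SMAD3, the receptor-regulated SMAD that carries TGF-beta and activin signals, was labelled weakly. Its rates were 0.0142, 0.0337 and 0.0412% without 4sU and 0.152, 0.141 and 0.181% with it, which passed the test (log2 change 1.39, SE 0.25, limma adjusted p = 0.0070) but lay below the median of 0.209% over the 7243 well-read genes. Its total mRNA was 32.9, 35.4 and 39.7 CPM without 4sU and 62.2, 38.9 and 43.0 CPM with it. The groups overlapped, with replicate 1 of DMSO 4sU above all others, and the log2 change of 0.35 (95% CI -0.10 to 0.80) did not pass (limma adjusted p = 0.610). Without that library it was 0.16.

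The related corepressors SKI and SKIL, which bind SMAD complexes and keep their target genes silent, were labelled to a modest degree. SKI had rates of 0.0364, 0.0423 and 0.0660% without 4sU and 0.372, 0.348 and 0.310% with it (log2 change 2.01, SE 0.26, limma adjusted p = 0.00254). SKIL had 0.0163, 0.0592 and 0.105% without and 0.570, 0.404 and 0.554% with 4sU (log2 change 2.41, SE 0.40, limma adjusted p = 0.00521). The rates of SKIL were above those of SKI in every labelled library. In total mRNA, SKI was at 46.3, 39.2 and 45.1 CPM without 4sU and at 63.8, 41.0 and 48.7 CPM with it, and SKIL at 63.5, 70.2 and 74.4 CPM without and 56.4, 56.3 and 61.1 CPM with it. The SKI groups overlapped, whereas all labelled libraries of SKIL were under the unlabelled ones by a small margin. Neither passed the test, with a log2 change of 0.18 for SKI (95% CI -0.23 to 0.60, limma adjusted p = 0.793, and 0.02 without DMSO 4sU replicate 1) and of -0.28 for SKIL (95% CI -0.63 to 0.07, limma adjusted p = 0.596).

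BAMBI, a membrane protein that resembles a type I receptor but lacks a kinase domain, had rates of 0.0590, 0 and 0.0884% without 4sU and of 1.60, 2.01 and 2.07% with it (log2 change 4.41, SE 0.47, limma adjusted p = 0.00166). Its total mRNA was 9.15, 6.03 and 6.16 CPM without 4sU and 4.84, 6.54 and 4.73 CPM with it. The mRNA groups overlapped, and the log2 change of -0.36 (95% CI -0.82 to 0.10) did not pass (limma adjusted p = 0.600). Over the fits that left out a library it ran from -0.49 to -0.24.

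TGFB2, a ligand, was the exception in labelling. Its rate was listed at 0 in all libraries without 4sU and in replicates 2 and 3 with DMSO 4sU, and at 0.112% in replicate 1, so it did not enter the test. It was read only 40 to 107 times per library of these groups, and the depth on T positions behind each rate is unknown, so how far its labelling was from that of the others was not tested. Its total mRNA was 2.62, 4.29 and 2.63 CPM without 4sU and 1.88, 4.46 and 3.39 CPM with it, and replicate 2 was the highest in both groups. The log2 change was -0.03 (95% CI -0.64 to 0.59, limma adjusted p = 0.986).

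Ordered by mean rate with DMSO 4sU, which is counted per T position and so can be set side by side between genes, the members were SMAD7 (7.82 ± 2.62%), ID1 (5.50 ± 0.563%), ID2 (3.79 ± 0.584%), SMAD6 (3.01 ± 2.07%), ID3 (2.14 ± 0.259%), BAMBI (1.89 ± 0.254%), SKIL (0.509 ± 0.0916%), SKI (0.343 ± 0.0314%), SMAD3 (0.158 ± 0.0208%) and TGFB2 (0.0373 ± 0.0646%, SD, n = 3 each). The ranges of SMAD7 and ID1 overlapped, as did those of ID2 and SMAD6, SMAD6 and ID3, and ID3 and BAMBI. The other neighbours in this order did not overlap: ID1 lay above ID2 in every library, BAMBI above SKIL, SKIL above SKI, SKI above SMAD3, and SMAD3 above TGFB2. In total mRNA, 5 members had labelled libraries that all lay under the unlabelled ones (ID1, ID3, SMAD6, SMAD7 and SKIL), against 10.5% of genes tested, and no member showed the opposite, against 7.77%. The 3 members that fell were all among those with rates over 1%, but ID2, SMAD6 and BAMBI were too. The part that T>C conversions in the reads had in the CPM values was not tested.

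**Figure D3:**
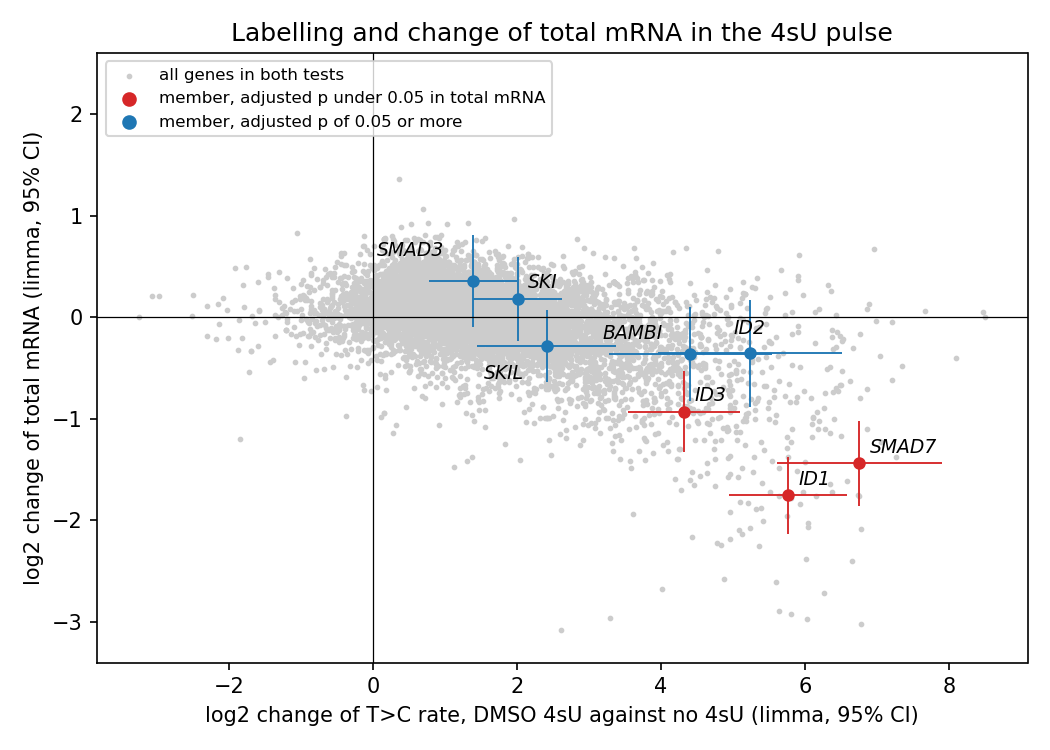
Log2 change of the T>C rate (horizontal) and of total mRNA (vertical) between DMSO 4sU and no 4sU, from limma with 95% confidence intervals, for 8 members (without SMAD6 and TGFB2) and, in grey, for all genes in both tests. ID1, ID3 and SMAD7 (red) lie at high labelling and lowered total mRNA, and SMAD3 and SKI lie near the bulk of genes; both axes come from the same 6 libraries.

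For the members whose total mRNA fell, the genes with the most similar profile over the 7 distinct libraries were listed by Pearson's r of log2(CPM + 1), as a description with no test, since all genes share these libraries and the step between the groups. ID1 ran closest to NFKBIA (r = 0.992), CCNL2 (0.990) and ZFP36L1 (0.984) among 7105 genes. NFKBIA, which encodes an inhibitor of NF-kappaB, went from 274 to 38.3 CPM and had a mean rate of 6.79% with DMSO 4sU. ID3 ran closest to MTF1 (0.984), CSRNP1 (0.983) and a transcript listed as NR_033361 (0.982). SMAD7 ran closest to CLK1 (0.996), EPC1 (0.994) and KLF7 (0.990) among 7106 genes, and CLK1, which encodes a kinase of splicing factors, went from 55.0 to 8.38 CPM.

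The rest of the pathway was followed in a list of 53 genes. Of 41 tested in the rate with 4sU, 26 passed, all of them higher, against 51.3% of 10895 genes called higher. Of the 26, 1 had been at 0 in all libraries without 4sU. The median log2 change of the 41 was 1.76, against 1.27 over all genes tested. By role, with the same 51.3% as background, 2 of 4 ligands, 5 of 11 receptors, 4 of 5 other SMADs, 9 of 11 other inhibitors and 6 of 10 other targets were called. In total mRNA 3 of 45 passed, against 1.63% of 12363 genes, all of them lower and all among the other targets. SNAI2, which encodes a transcriptional repressor of epithelial genes, fell from 90.5 ± 39.4 to 22.8 ± 4.01 CPM (SD, n = 3 each, log2 change -1.88, limma adjusted p = 0.0212) with a mean rate of 3.64% in DMSO 4sU. SNAI1, its relative, fell from 4.27 ± 0.0488 to 0.917 ± 0.649 CPM (log2 change -1.53, limma adjusted p = 0.0121). JUNB, an AP-1 subunit, fell from 35.2 ± 6.12 to 15.1 ± 3.13 CPM (log2 change -1.21, limma adjusted p = 0.0224) and had the highest mean rate of the listed genes with at least 200 reads, 4.20%. The call of SNAI1 was lost in 4 of the 6 fits that left out a library (adjusted p up to 0.0717), and those of SNAI2 and JUNB were lost in 5 of the 6, all but the fit without no 4sU replicate 1 (adjusted p up to 0.110 and 0.106). KLF10, a TGF-beta-induced repressor, followed with 3.14% after SNAI2. Its total mRNA was 90.8 ± 24.0 CPM without and 39.1 ± 9.36 CPM with 4sU (limma adjusted p = 0.0531), and with the replicate number as a block its adjusted p was 0.0103. TGIF1, another SMAD corepressor, had 18.96 ± 1.92 and 10.8 ± 1.04 CPM (limma adjusted p = 0.0624, and 0.0488 with the block), and was named after its values were seen because the block changed its call. KLF10 was called in 5 of 16 alternatives and TGIF1 in 3 of 16. With a library left out, their limma adjusted p ran up to 0.210 and 0.298.

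The second comparison, IAA 4sU against DMSO 4sU, asks what the loss of JUN did to newly made and to total mRNA. It uses the same DMSO 4sU libraries as the first, and IAA is 1 library, so only positions relative to the 3 DMSO libraries can be given. JUN itself had a rate of 2.97% with IAA, inside the DMSO range of 2.03 to 3.08%, and total mRNA of 62.9 CPM, above the DMSO values of 30.2, 20.3 and 25.6 CPM. Its log2 difference in total mRNA was 1.21 with TMM library sizes. It was among the 20 of 12367 genes at least 1 log2 unit from the DMSO mean and outside the DMSO range. Whether these reads came from the knocked-out gene or from the JUN-AID construct was not tested. On the percent scale, 2 of the 10 members lay above the range of the DMSO libraries with IAA, 5 within it and 3 below it. Over all 11762 genes, 28.7% lay above and 16.8% below on this scale, so a count of 5 outside is near the background.

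SMAD7 (6.80%), ID1 (5.26%), ID2 (3.95%), ID3 (2.12%) and SMAD6 (1.16%) were within their DMSO ranges in the IAA library. The corepressors and BAMBI were lower: SKI had 0.289% against at least 0.310%, SKIL 0.352% against at least 0.404%, and BAMBI 1.16% against at least 1.60%. SMAD3 was higher, with 0.282% against at most 0.181%. TGFB2 was also higher, with 0.526% against 0.112, 0 and 0%, in a library with 35 reads of this gene.

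With the library medians set equal, the log2 difference of the IAA library from the DMSO mean was -0.22 for ID1, -0.09 for ID2 and -0.17 for ID3. It was -0.30 for SMAD7, -1.20 for SMAD6, -0.37 for SKI, -0.62 for SKIL and -0.83 for BAMBI. It was 0.52 for SMAD3 and 2.80 for TGFB2, of which the latter depends on the pseudocount because 2 of its DMSO rates are 0: it was 4.35 with 0.0001 and 1.54 with 0.002. On this scale 2 members were higher and 8 lower, and 7 of 10 were outside the DMSO range, against 49.1% of all genes. Centring moved the median of all genes by 0.16 log2 units, and without it ID1 was at -0.06, ID3 at -0.01 and SKI at -0.21. When the rate was multiplied by CPM, a measure of the amount of new mRNA, 6 members were higher and 4 lower, as ID1 (0.17), ID2 (0.08), ID3 (0.07) and SKI (0.01) turned sign, SMAD3 was at 0.92, and JUN went from 0.11 to 1.37. A difference of at least 1 log2 unit outside the DMSO range was seen for 1 of 10 members, TGFB2, against 20.6% of 11762 genes (1156 higher and 1266 lower, or 1442 and 754 without centring). TGFB2 met the filter, a rate above 0 in 2 of 4 libraries, only because the IAA library counted towards it. Its pass is therefore no evidence of a change. SMAD6 stayed inside the range because of replicate 3 of DMSO 4sU, and without that library its difference was -1.82 and passed the same rule.

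**Figure D4:**
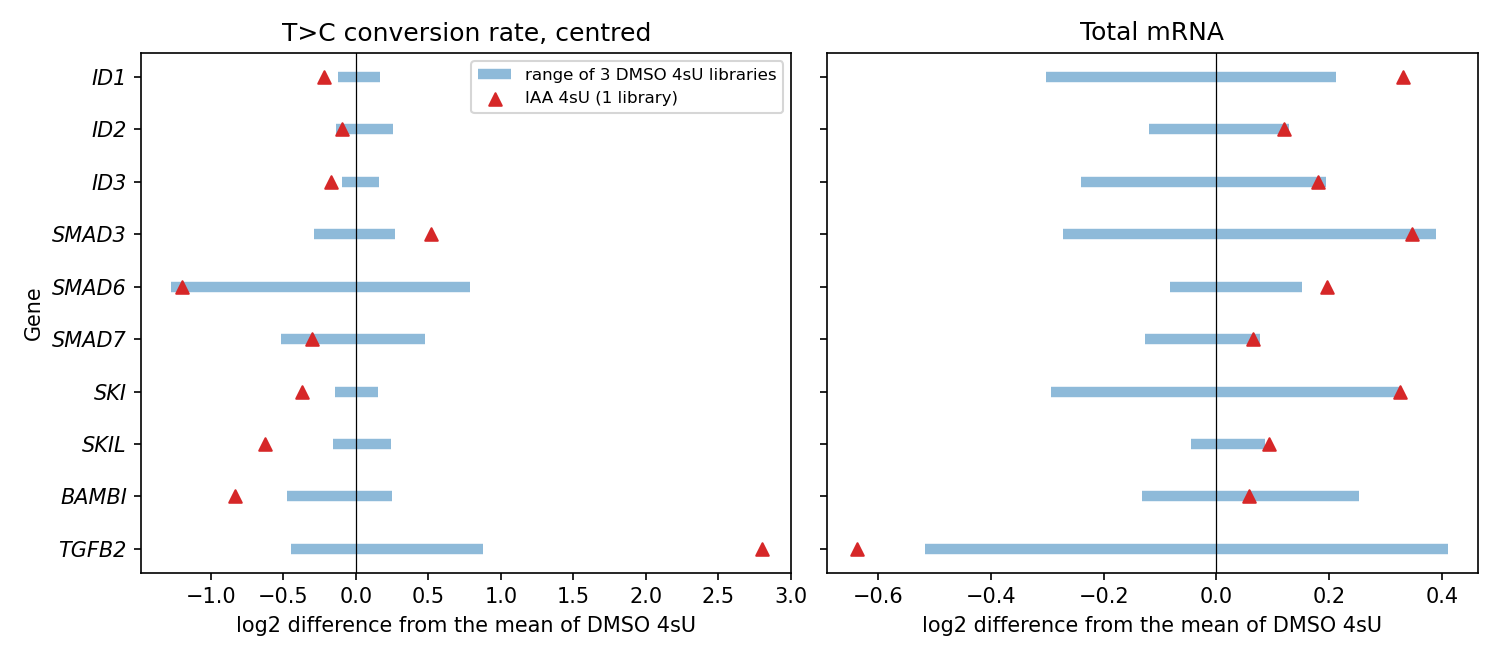
Log2 difference of the 1 distinct IAA 4sU library (red triangles) from the mean of the 3 DMSO 4sU libraries, whose range is the blue bar, for the centred T>C rate (left) and total mRNA (right). In the rate, SMAD3 and TGFB2 lie above their bars, at 0.52 and 2.80, and ID1, ID3, SKI, SKIL and BAMBI below; in total mRNA no member is a full log2 unit away.

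In total mRNA the IAA library gave 70.4 CPM for ID1, 10.8 for ID2 and 95.6 for ID3, each above its 3 DMSO values. SMAD3 (64.0 CPM), SMAD6 (0.598), SMAD7 (4.49), SKI (67.4) and SKIL (65.8) were also above theirs, BAMBI (5.93) was within and TGFB2 (1.74) below. That is 8 of 10 above, against 32.3% of 12367 genes above and 11.9% below on this scale. Most of these gaps were small, and for SMAD3 and SKI the IAA value was close to DMSO 4sU replicate 1, at 62.2 and 63.8 CPM. For SMAD6, counting error alone spans more than the gap, since its 12 reads with IAA give an exact Poisson 95% interval of 0.309 to 1.05 CPM. With TMM library sizes, 4 of 10 members were outside the DMSO range, against 41.9% of all genes, and the log2 differences ran from -0.64 for TGFB2 to 0.35 for SMAD3, with 0.33 for ID1, 0.18 for ID3 and 0.06 for SMAD7. None of the 10 reached 1 log2 unit outside the range, against 0.162% of 12367 genes. Of the 53 pathway genes, 8 of 44 passed this rule in the rate, against 20.6% of 11762 genes, and 0 of 46 in total mRNA. Among those that passed in the rate, HEY1 met the filter only through the IAA library, like TGFB2. Its pass is therefore no evidence of a change either.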

How the data were processed

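SLAM-Seq was run on 9 samples of 1 cell line, and QuantSeq 3′ libraries were made from alkylated RNA. A Nextflow pipeline for SLAM-Seq was used by the authors, whose deposited table has 56868 rows, 1 per RefSeq transcript and 3′ interval; hg19 is the build in the submitters' processing notes. The deposited T>C rate is a fraction without background subtraction or coverage, so its counting error is unknown. The deposited CPM is a signal scaled to library size. Divided by the smallest step of its library, every non-zero CPM value (100%) was a whole number within 0.01 reads, which gave reads and library totals; intervals and Poisson ranges cover counting error only. No per-sample column was left unused (0). The deposited interval length was used only to tell intervals apart and to compare them with annotated 3′ UTR exons.

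RefSeq identifiers were matched to symbols through the RefSeq gene table of GRCh38.p14, names only (97.7% of rows, and 1305 rows kept their own identifier). Rows of a gene with equal reads in all libraries were used once. In 13.4% of genes there were several distinct intervals, whose reads were summed and whose rates were averaged with reads as weights. Members and gene lists were chosen with earlier results of these data known.

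Rates were tested with limma (3.58.1, R 4.3.3; trended, robust) on log2(rate + 0.0005) for genes whose rate exceeded 0 in 3 or more of 6 libraries. Total mRNA was tested with limma as log2 of CPM plus 1, after TMM scaling of library sizes (edgeR 4.0.16), in genes with at least 10 reads in at least 3 of 6 libraries. These scales understate the change of low genes. All p-values were two-sided and adjusted by Benjamini-Hochberg over all genes tested. IAA was compared without a test, with filters of 2 in 4 libraries; a gene counted as changed at 1 log2 unit or more from the DMSO 4sU mean and outside the DMSO 4sU range. The fits were tested on simulated data, where the rate test made excess false calls among genes of few reads.

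Same-numbered libraries with and without 4sU deviated together in total mRNA (correlation 0.41, 0.33 and 0.49 over 7243 genes), so the numbers pair the libraries there as a pattern in the data, which the labels do not explain. They did not in the rates (-0.0083, -0.0040 and 0.0071 over 7232 genes). Alternatives were other pseudocounts, filters, scalings, intervals and tests (DESeq2 1.42.0 and edgeR on the recovered reads), the replicate block and leaving out each library. Named beyond the members were JUN, up to 6 pathway genes with the largest change among those past the test in total mRNA, the 3 pathway genes of at least 200 reads with the highest rate, and the 3 genes with the profile most like each member that fell.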

Additional observations from a re-analysis of the deposited data

How the results depend on the processing

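The calls in the T>C rate with 4sU of the 8 members other than SMAD6 and TGFB2 held in the alternatives in which the member was tested, and the calls of ID1 and SMAD7 in total mRNA held in 16 of 16 and 15 of 15, with adjusted p up to 0.00932 and 0.0315. ID3 lost its call in 6 of 16, with an adjusted p of 0.0620 without a filter. The log2 change of TGFB2 in total mRNA, never called, turned from -0.03 to 0.16 without no 4sU replicate 2 and to 0.23 without DMSO 4sU replicate 1, and over all fits with a library left out it ran from -0.23 to 0.23. The number of genes called in total mRNA with 4sU was 202, and 79 with at least 200 reads, 435 with DESeq2, and 66 (without DMSO 4sU replicate 3) to 285 (without no 4sU replicate 1) when a library was left out. In the rate 5593 were called, and 4107 to 5047 with a library left out. With the replicate block 233 genes were called in total mRNA and 4606 in the rate, and it changed no member's call; ID1, SMAD7 and ID3 had blocked adjusted p of 0.00233, 0.00855 and 0.0253. For IAA, 2422 genes passed the rule in the rate, 691 with at least 200 reads and 1438 with a pseudocount of 0.002, and 2489 to 2596 with a library left out. In total mRNA 20 passed, 9 with at least 200 reads, 54 with a pseudocount of 0.5, 6 with a pseudocount of 5, and 15 to 105 with a library left out, the 105 without DMSO 4sU replicate 1. No paired analysis was possible because IAA is 1 library whose replicate number is not known, which concerns the IAA comparison alone. The causes were not tested. Averaging the intervals of a gene without weights, added after seeing the data, changed no member's call in the rate. Low reads limit SMAD6, SMAD7, BAMBI and TGFB2 most.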
